A study of Mus musculus with 162 samples.

Results

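GABAergic neurons of the mouse forebrain that hold transcripts of the pallial factors Neurod2 or Neurod6 were compared with GABAergic neurons that do not. The cells were chosen by their measured counts of Gad1, Gad2, Neurod2 and Neurod6 and by their labels. A cell entered when it had passed the submitters' quality control, was labelled MGE-derived 1, MGE-derived 2, CGE-derived or GABAergic, and held at least 10 counts (reads assigned to the gene) of Gad1 or Gad2. Cells with at least 10 counts of Neurod2 or Neurod6 are called Neurod-positive here and numbered 16, and the 40 cells with fewer of both are called Neurod-negative. These 56 cells are all but 1 of the 57 passed cells with such a label, out of 148 passed cells and 162 cells in the series. The cell left out had no count of Gad1 or Gad2. Every cell came from a mouse embryo at E17.5 to E18.5, and its cytosol was drawn into a patch-clamp pipette and sequenced singly. The Neurod-positive cells came from the Htr3a Cre line (12 cells) and the Lhx6 Cre line (4 cells), and the Neurod-negative cells from the same lines (29 and 11 cells). These lines mark cells in which Cre was driven through Htr3a, a serotonin receptor gene of CGE-derived interneurons, or Lhx6, a factor of MGE-derived interneurons, so the cells are those such drivers reach. The labels name no other allele and no treatment. No cell of either group came from the Nex Cre line, Nex being another name of Neurod6. The comparison cells were the 46 passed cells labelled Glutamatergic 1 or Glutamatergic 2. Of these, 35 came from the Htr3a Cre line and the rest from the Nex Cre line.

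The animal, litter or culture of a cell is not given by any label. The cells of a group may share an embryo, and each group counts as 1 sample. No test, p-value or standard error is therefore given, and every SD is a spread between cells. Intervals of levels cover counting error only. Intervals of shares of cells treat the cells as independent, which they may not be. Levels are CPM, counts scaled to the same total in every cell. For a group, the CPM of its summed counts is given, and a log2 difference is the mean over Neurod-positive cells of log2(CPM + 1) minus that over Neurod-negative cells. A gene is called higher or lower where that difference is at least 1 in size, which is a rule of size and not a test.

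Cortical neurons form along separate routes. Glutamatergic projection neurons arise in the pallium, where proneural basic helix-loop-helix (bHLH) factors are followed by Neurod1, Neurod2 and Neurod6, which bind E-box sequences with E-protein partners and act in projection neuron differentiation and axon growth. GABAergic interneurons arise in the medial and caudal ganglionic eminences (MGE and CGE) of the subpallium under Dlx factors, and migrate tangentially into the cortex. Neurod2 and Neurod6 are therefore commonly used as markers of the glutamatergic lineage.

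Neurod2 (ENSMUSG00000038255, chr11:98325415-98329648, minus strand, GRCm38) and Neurod6 (ENSMUSG00000037984, chr6:55677822-55681263, minus strand) are bHLH genes, and no stretch of 50 bases of either was shared with another transcript. Both promoters are shown because these genes define the cells, and a promoter of Zbtb18 because that gene had the largest difference among the genes named below. They are RefSeq windows on GRCm38.p6, from 250 bases before to 50 bases after the transcript start. The capitals mark CAGATG or its other strand CATCTG, an E-box of the CANNTG form.
Neurod2 promoter, chr11:98329596-98329895, minus strand: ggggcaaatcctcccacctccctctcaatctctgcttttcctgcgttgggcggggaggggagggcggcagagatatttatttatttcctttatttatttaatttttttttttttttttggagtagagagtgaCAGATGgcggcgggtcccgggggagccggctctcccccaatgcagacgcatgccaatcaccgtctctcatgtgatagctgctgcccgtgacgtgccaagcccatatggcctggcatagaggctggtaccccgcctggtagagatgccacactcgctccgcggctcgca
Neurod6 promoter, chr6:55681214-55681513, minus strand: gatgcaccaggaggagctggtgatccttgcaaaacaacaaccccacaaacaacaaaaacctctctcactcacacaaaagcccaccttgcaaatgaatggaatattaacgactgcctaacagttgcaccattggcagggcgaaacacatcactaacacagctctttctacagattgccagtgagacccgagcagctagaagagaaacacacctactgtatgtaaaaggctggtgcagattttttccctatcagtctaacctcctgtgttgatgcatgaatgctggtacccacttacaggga
Zbtb18 promoter, chr1:177442101-177442400, plus strand: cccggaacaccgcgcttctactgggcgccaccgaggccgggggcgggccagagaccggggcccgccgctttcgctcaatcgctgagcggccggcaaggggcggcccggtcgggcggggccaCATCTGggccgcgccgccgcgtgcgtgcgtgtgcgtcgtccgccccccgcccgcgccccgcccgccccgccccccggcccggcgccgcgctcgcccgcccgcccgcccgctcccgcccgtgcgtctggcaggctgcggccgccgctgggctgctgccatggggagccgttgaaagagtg
The Neurod2 window held 1 such motif and the Neurod6 window held 0. All 5 Zbtb18 windows of the table, which overlap in part, held 1 each. Of all 32851 promoters in the table, 17.2% held the motif, and of the promoters of genes counted here 11.8% did. Of the promoters of genes higher in Neurod-positive cells 11.7% held it, about the share of all genes counted, and of those of lower genes 9.43%. Among the projection neuron transcription factors listed below, 10 of 38 promoters (26.3%) held it, 5 of which are windows of Zbtb18. A match is a description of these letters only.

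The Neurod counts that chose the cells left a wide gap at the threshold. The lowest Neurod-positive cell, GABAergic cell 2, had 37 counts of its larger Neurod gene, the next had 429 and the highest 19568. Among the 40 Neurod-negative cells 35 had 0 counts of both genes, and the highest count of either was 4. With a threshold of 1 count 21 cells would be Neurod-positive, with 100 counts 15, and with 1000 counts 11.

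Both genes were not always found together. Of the 16 cells, 9 held at least 10 counts of both genes, 3 of Neurod2 only and 4 of Neurod6 only. Neurod2 ranged from 0 to 219 CPM with a median of 72.2, and its summed level was 65.5 CPM against 149.7 in Glutamatergic cells, or 43.8%. Neurod6 ranged from 0 to 2372 CPM with a median of 233, and its summed level was 355 CPM against 683, or 52.0%. The ranges thus overlapped those of Glutamatergic cells, in which the medians were 94.4 CPM of Neurod2 and 463 CPM of Neurod6. The highest Neurod6 level, 2372 CPM, was in MGE-derived 2 cell 7 and the next, 906 CPM, in MGE-derived 1 cell 7, both of the Lhx6 line. Neurod1, the third member of the family in projection neurons, had 0 counts in all 16 cells and in all 40 Neurod-negative cells, but a level of 111.0 CPM in Glutamatergic cells, where 21 of 46 had a count.

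**Figure D1:**
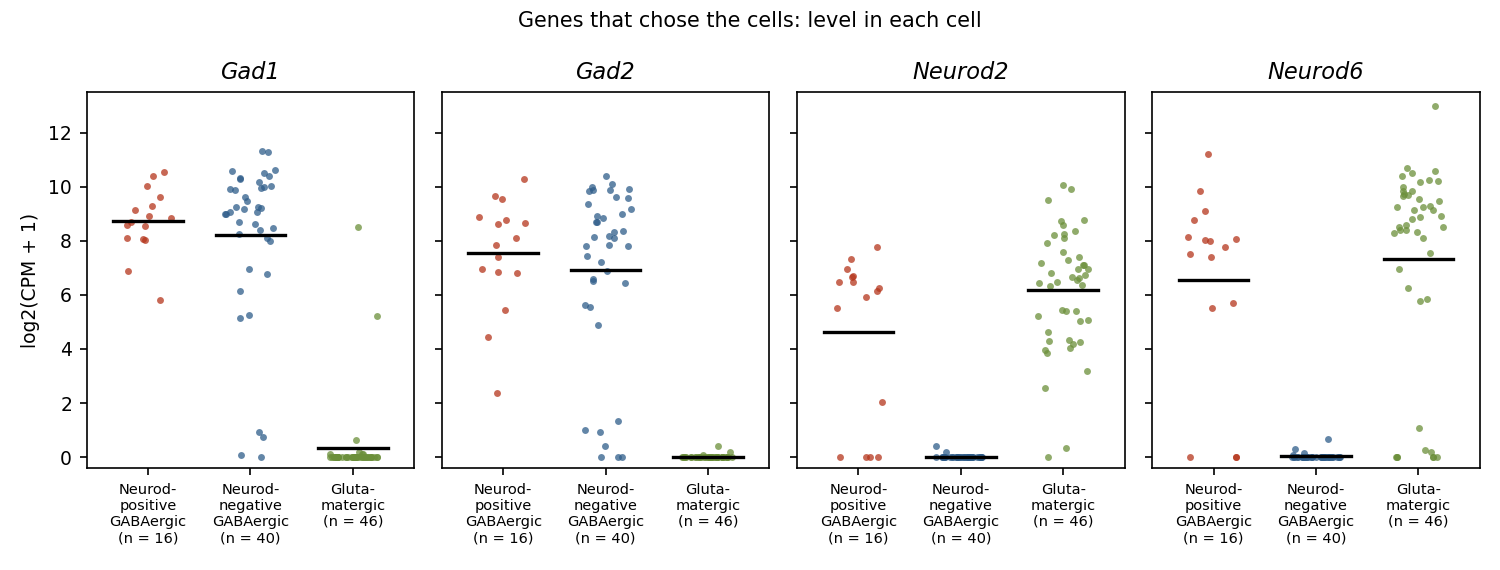
Level of the 4 genes that chose the cells, as log2(CPM + 1), with 1 point per cell and a bar at the mean. The 16 Neurod-positive cells overlap the 46 Glutamatergic cells in Neurod2 and Neurod6 and the 40 Neurod-negative cells in Gad1 and Gad2.

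The defining markers of the type labels were present in both groups. Gad1 and Gad2 encode the GABA-synthesising enzymes, and all 16 Neurod-positive cells held at least 10 counts of each, as did 30 of 40 Neurod-negative cells. Gad1 ranged from 55.3 to 1505 CPM in the 16 cells (median 438), and its summed level was 567 CPM against 734 in Neurod-negative cells and 14.7 in Glutamatergic cells. Gad2 ranged from 4.15 to 1238 CPM (median 251), with summed levels of 331, 410 and 0.00662 CPM in the same order. Gad levels of the Neurod-positive and Neurod-negative cells overlapped widely. Lhx6, which specifies MGE-derived interneurons, was counted in 11 of 11 MGE-labelled Neurod-positive cells and 30 of 30 MGE-labelled Neurod-negative cells, at summed levels of 681 and 1064 CPM. It had 1 count in all 46 Glutamatergic cells together. Adarb2, an RNA editing enzyme family gene that marks CGE-derived interneurons, was counted in 4 of 4 and 7 of 7 CGE-labelled cells, at 1401 and 1110 CPM. The type labels were probably drawn from the expression of these very cells, so the values describe the labels and do not test them.

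Neurod-positive cells occurred under every label and in both lines. They were 3 of 17 MGE-derived 1 cells, 8 of 24 MGE-derived 2 cells, 4 of 11 CGE-derived cells and 1 of 4 GABAergic cells. Over all labels the share was 28.6% (95% Clopper-Pearson interval 17.3 to 42.2), being 29.3% (16.1 to 45.5) among Htr3a cells and 26.7% (7.79 to 55.1) among Lhx6 cells. These intervals treat cells as independent although cells may share an embryo, so labels and lines are not compared by them.

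Detection of genes differed between the groups. Total counts overlapped, from 4554020 to 14094776 per Neurod-positive cell and from 1710224 to 19310050 per Neurod-negative cell. The number of genes with a count had a median of 6548 in Neurod-positive and 4721.5 in Neurod-negative cells, and after thinning every cell to 1710224 counts the medians were 6235 and 4302.5. Of 13964 genes with a count in 10% or more of either group's cells, 2855 (20.4%) were higher in Neurod-positive cells and 284 (2.03%) lower, with a median difference of 0.32. By the ratio of summed counts the calls were nearly even, 2343 (16.8%) higher and 2148 (15.4%) lower, with a median log2 ratio of 0.01. The part of the greater gene detection in the higher calls was not tested. Both measures are given for each list whose calls are counted below.

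The projection neuron transcription factors were the largest list with a share of higher genes well over that background. Of 29 members 28 were counted, of which 15 were higher and 0 lower, with a median difference of 1.16 against 0.32 for all genes. By summed counts 10 were higher and 2 lower, with a median log2 ratio of 0.28 against 0.01. Among genes found in over 50% and up to 75% of the 56 cells, 36.9% of all genes were higher and 7 of 10 list members, and among genes found in over 25% and up to 50%, 25.2% of all genes and 5 of 7 members. Among genes found in over 75% the shares were 29.1% and 3 of 5 members, and among those found in up to 25%, 4.82% and 0 of 6 members. The count of higher members was 18 of 27 when only cells with 4000 to 8500 genes were kept (13 and 25 cells), a limit chosen after the data were seen. The list was drawn up with earlier results of these cells known.

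Zbtb18 (chr1:177442351-177450764, plus strand), a zinc-finger repressor acting in pallial neuron differentiation, had the largest difference of the genes named by the rule of size. In Neurod-positive cells it ranged from 0 to 2128 CPM with a median of 232, and in Neurod-negative cells from 0 to 721 CPM with a median of 0. The ranges overlapped, since 3 of 16 Neurod-positive cells had no count and 18 of 40 Neurod-negative cells had one. The log2 difference was 4.02, with SDs between cells of 4.27 and 3.11, and the summed levels were 387 against 61.1 CPM. Within MGE-derived 1, MGE-derived 2 and CGE-derived cells the difference was 6.73, 4.04 and 3.15. After thinning, 12 of 16 and 17 of 40 cells held a count. Without MGE-derived 2 cell 7, the cell of highest level, the summed level was 288 CPM. The exons of Zbtb18 overlap an antisense gene, Gm26801, and the strand used in counting is not stated in the sources used here, so reads of the pair cannot be told apart.

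Tbr1, a T-box factor of early-born and deep-layer projection neurons, was counted in 9 of 16 and 6 of 40 cells. It ranged from 0 to 57.9 CPM with a median of 2.28 in Neurod-positive cells. In Neurod-negative cells its summed level of 4.98 CPM fell to 0.115 CPM without the highest cell, at 178 CPM. The Neurod-positive level, 11.5 CPM, was 15.3% of the 75.5 CPM in Glutamatergic cells. Tbr1 went against the pattern in MGE-derived 1 cells, where 0 of 3 Neurod-positive and 1 of 14 Neurod-negative cells had a count and the difference was -0.53.

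Other members differed mostly by the share of cells with a count. Sox5, which acts in corticofugal neurons, was at 39.4 against 7.86 CPM (difference 1.67), and its difference was -0.89 within CGE-derived cells. Nfib and Id2, a nuclear factor I gene and a bHLH inhibitor, had differences of 3.20 and 3.38, but their summed levels were 514 against 349 CPM and 437 against 375 CPM. Nfix and Cux1 had differences of 2.53 and 1.84 while their summed levels were slightly lower in Neurod-positive cells, at 151 against 162 and 133 against 159 CPM, so the measures differed in direction. In all, 4 of the 15 higher members of the list had a lower summed level in Neurod-positive cells. Emx1, which marks the pallium, was counted in 4 of 16 and 2 of 40 cells, and after thinning in 2 and 1. Its summed level of 9.16 CPM in Neurod-positive cells was 0.199 CPM without the highest cell. Cux2, expressed in upper-layer neurons and in MGE-derived interneurons, was lower by summed counts, at 21.7 against 104 CPM, with a difference of -0.90.

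The genes of glutamatergic transmission and projection neuron effector function were in part higher. Of 26 members 24 were counted, of which 9 were higher and 1 lower (median 0.46), beside 20.4% and 2.03% of all genes. By summed counts 6 were higher and 3 lower (median 0.63), beside 16.8% and 15.4% of all genes. Among genes found in up to 25%, 50%, 75% and 100% of the cells, 1 of 7, 3 of 7, 2 of 6 and 3 of 4 members were higher. The shares of all genes were 4.82%, 25.2%, 36.9% and 29.1% in the same order. Among cells of the Lhx6 line alone (4 and 11 cells) 7 of 20 counted members were higher and 5 lower, with a median of -0.29. Slc17a7, the vesicular glutamate transporter of cortical projection neurons, had a count in 1 of 16 Neurod-positive cells, at 21.9 CPM, and in 4 of 40 Neurod-negative cells, at up to 5.04 CPM. Its summed level of 1.22 CPM (95% Poisson interval 1.05 to 1.41) was 0.786% of the 155 CPM in Glutamatergic cells, of which 38 of 46 had a count. Slc17a6, the other main vesicular glutamate transporter, had a count in 3 Neurod-positive cells, of which MGE-derived 2 cell 10 stood at 76.3 and CGE-derived cell 7 at 27.2 CPM, and 1 count in all Neurod-negative cells together. The vesicular transporter of GABA, Slc32a1, was in contrast counted in 13 of 16 and 20 of 40 cells, at 10.3 and 10.5 CPM. Of its 50-base stretches, 23.7% occur in another transcript.

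**Figure D2:**
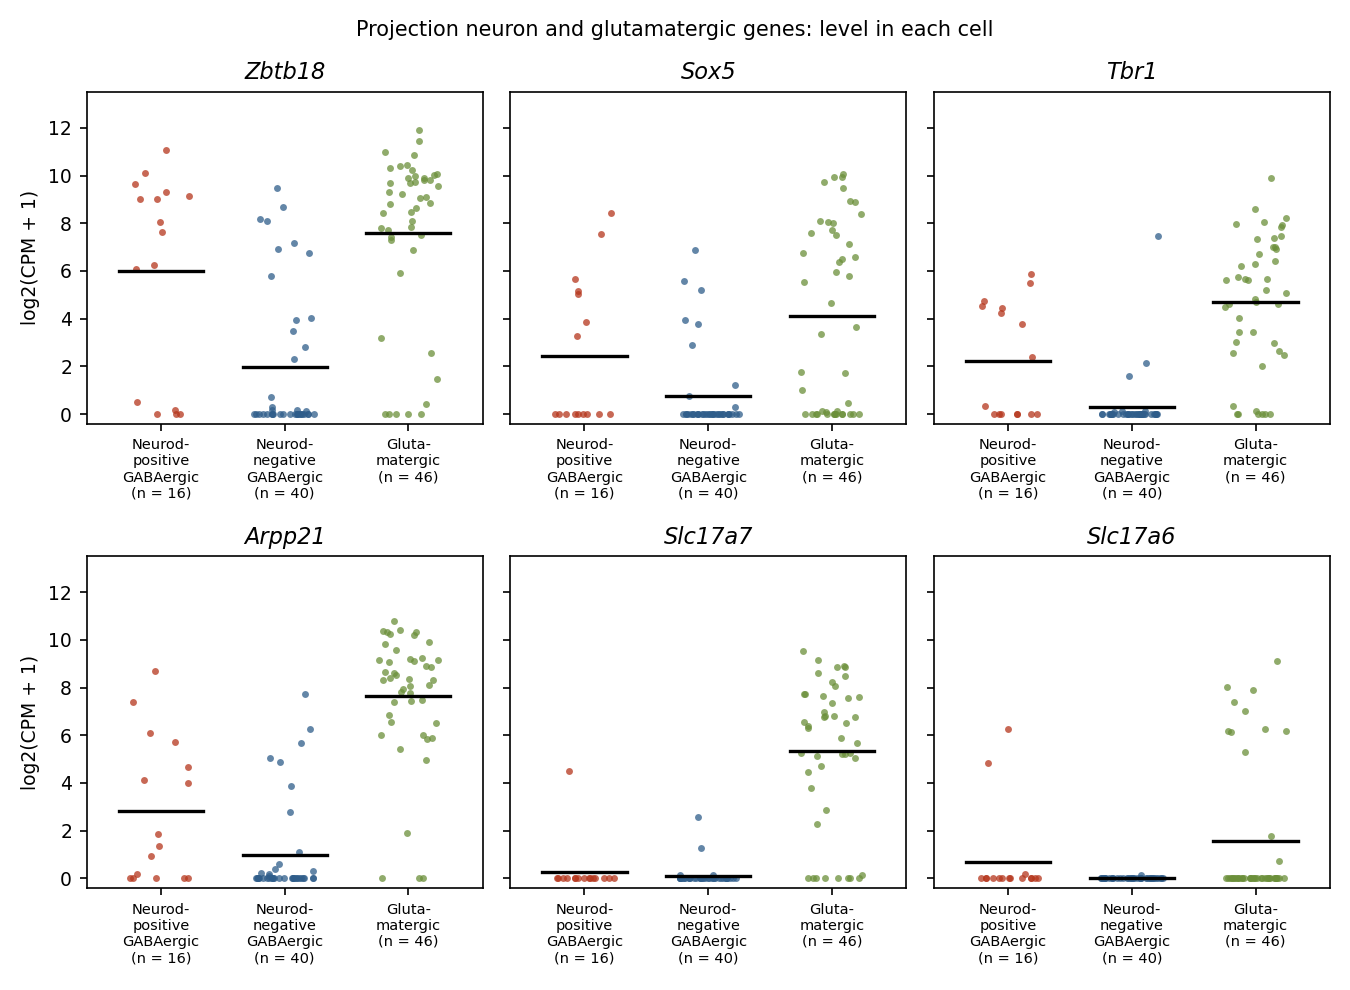
Level of 3 projection neuron transcription factors and 3 genes of the glutamatergic list, as log2(CPM + 1), with 1 point per cell and a bar at the mean. Zbtb18 ranges up to 2128 CPM in the 16 Neurod-positive cells, while Slc17a7 has a count in 1 of them.

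Among the higher members of this list, Dab1, the intracellular adaptor of Reelin signalling, had a difference of 3.08 and was counted in 11 of 16 and 11 of 40 cells, at 121 against 63.8 CPM. Without the highest Neurod-negative cell, at 1748 CPM, that group's level was 9.28 CPM. Sybu, which links cargo to kinesin in axons, was at 139 against 27.4 CPM (difference 1.98), and without its highest cell, at 1387 CPM, the Neurod-positive level was 68.9 CPM. Arpp21, a cyclic AMP regulated phosphoprotein, was at 41.1 against 14.8 CPM (difference 1.84), or 10.4% of the Glutamatergic level. Without the highest cell of each group Arpp21 was at 20.1 against 6.57 CPM, the former 5.09% of the Glutamatergic level. Cdh13, a cadherin anchored to the membrane by a lipid, was the lower member, at 59.2 against 190 CPM (difference -1.40). Its difference was -3.05 and -1.28 in the MGE labels and 0.12 in CGE-derived cells.

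Set against Glutamatergic cells, the Neurod-positive cells reached different fractions of the level gene by gene. Over the 40 members of both lists that were counted in at least 50% of Glutamatergic cells, the rule genes left out, their level was 0.786% to 316% of the Glutamatergic one with a median of 34.9%. The Neurod-negative cells ranged from 0.0784% to 300% with a median of 27.6%, and were the lower group for 27 of 40 genes. Under 10% of the Glutamatergic level stood 3 genes in Neurod-positive cells and 12 in Neurod-negative cells. The share over all genes was not worked out for either count, so neither can be set against a background. By summed counts the median log2 ratio of all genes was 0.01. For the 22 transcription factors the medians were 49.7% and 30.1%, and for the 18 effector genes 27.2% and 25.4%.

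**Figure D3:**
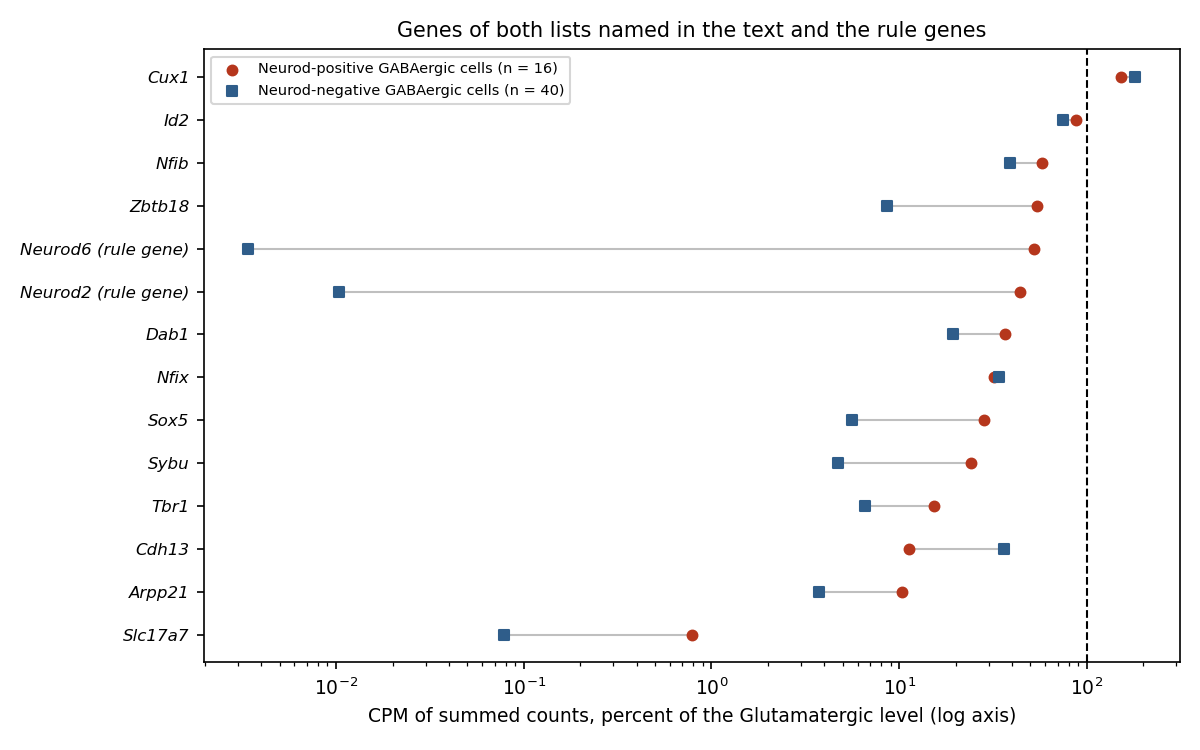
CPM of summed counts as a percent of the Glutamatergic level, on a log axis, for those of the 40 genes that are named in the text and for Neurod2 and Neurod6, which chose the cells; circles are the 16 Neurod-positive and squares the 40 Neurod-negative cells, and the dashed line is 100%. Zbtb18 lies at 54.5% against 8.61%, and Slc17a7 at 0.786% is the lowest of them in the Neurod-positive cells.

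Counted per cell, the median of the Neurod-positive cells lay between those of the other groups. Of the 40 genes, a Neurod-positive cell held 10 to 34 at 10 or more counts (median 26.5), a Neurod-negative cell 8 to 37 (median 16) and a Glutamatergic cell 14 to 40 (median 30.5). Without cells of over 10000 genes, the first 2 ranges were 10 to 34 (median 27) and 8 to 22 (median 15.5). The median number of genes with a count was 6548, 4721.5 and 5620.5 in the 3 groups. The part of gene detection in these per-cell counts was not tested. Of 5 genes closely tied to pallial neurons (Tbr1, Emx1, Slc17a7, Slc17a6 and Neurod1, chosen after their values were seen), 9 of 16 Neurod-positive cells held at least 1 at 10 or more counts and 4 held 2, the most in any cell. Of the Neurod-negative cells, 5 of 40 held 1 and none held 2. Without cells of over 10000 genes, at least 1 was held by 9 of 15 Neurod-positive and 3 of 36 Neurod-negative cells. Of the 46 Glutamatergic cells, 45 held at least 1 and 39 at least 2. Among the 7 Neurod-positive cells with 0 of these genes at 10 counts was CGE-derived cell 10. It had 122 CPM of Neurod2 and 283 CPM of Neurod6 beside 0 counts of Zbtb18 and Tbr1. MGE-derived 2 cell 7, with the highest Neurod6 level, also had the highest Zbtb18 level, 2128 CPM.

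Across the 16 cells, the log2 of the summed Neurod2 and Neurod6 level had Pearson's r = 0.59 (Spearman's rho 0.49) with the summed level of the projection neuron transcription factors, and r = 0.72 (rho 0.54) with that of the glutamatergic list. Without the 2 cells farthest from the median Neurod level these r were 0.47 and 0.53. With the summed Gad1 and Gad2 level r was 0.30 (rho 0.09), and -0.11 without those 2 cells, but the counts of both gene pairs chose the cells and nothing is read from it. With the number of genes per cell r was -0.51 (rho -0.42), and -0.21 without those 2 cells. The counts of Neurod2 and Neurod6 chose these cells, so nothing is read from any of these r. The transcription factor sum also includes Sox11, at 1848 CPM in Neurod-positive and 1752 CPM in Neurod-negative cells. All these values are descriptions of cells that share lines, may share embryos and have their depth in common.

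The GABAergic genes did not stand lower as a group in Neurod-positive cells. Of 6 counted GABA transmitter genes, 3 were higher and 0 lower (median 0.92), and by summed counts 0 were higher and 0 lower. Of 11 counted Dlx and ganglionic eminence factors 3 were higher and 0 lower (median 0.49), and by summed counts 1 was higher and 2 lower. For all genes the shares were 20.4% higher and 2.03% lower, and 16.8% and 15.4% by summed counts. Dlx2 was at 458 against 366 CPM with a difference of 1.91, and Dlx1 at 245 against 408 CPM with a difference of 0.11, so its measures differed in direction. The Dlx1 difference changed sign between lines, from -1.19 among Htr3a cells to 3.63 among Lhx6 cells.

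The counts of this paragraph stand beside 20.4% higher and 2.03% lower for all genes, or 16.8% and 15.4% by summed counts. Of 15 counted MGE markers 6 were higher and 1 lower, while by summed counts 0 were higher and 4 lower. Erbb4, the neuregulin receptor of migrating interneurons, was counted in 16 of 16 Neurod-positive and 30 of 40 Neurod-negative cells, a difference of 2.64, with summed levels of 280 and 258 CPM. Glutamatergic cells had 3 counts of Erbb4 in all, or 0.00662 CPM. Elfn1, a synaptic protein of somatostatin interneurons, was the lower member, at 9.19 against 22.8 CPM (difference -1.12). Of 12 counted CGE markers 5 were higher and 0 lower (median 0.59), and 1 and 0 by summed counts. The 1 was Htr3a, the driver gene of most cells, counted in 7 of 16 and 16 of 40 cells at 667 against 275 CPM, and at 323 against 177 CPM without the highest cell of each group. Of 25 counted migration genes 8 were higher and 1 lower (median 0.35), and 4 and 3 by summed counts. Plxna4, a semaphorin co-receptor, had a difference of 2.31 (144 against 92.0 CPM), and Rnd3, a small GTPase of migrating neurons, one of -1.12 (160 against 301 CPM).

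**Figure D4:**
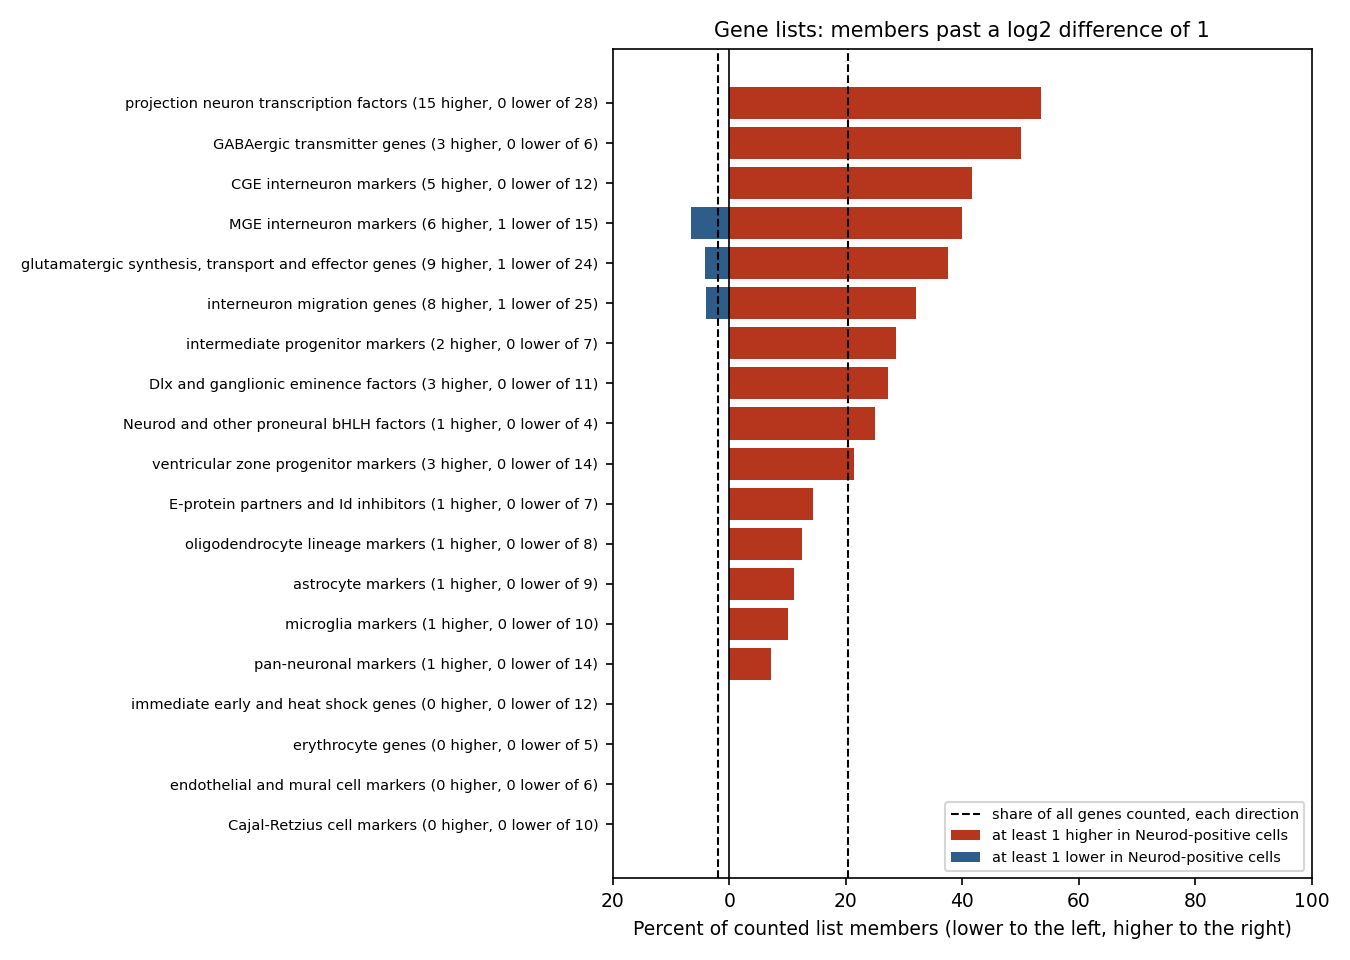
Percent of counted members of each list of at least 4 counted genes that were higher (right) or lower (left) in Neurod-positive cells by a log2 difference of at least 1, with dashed lines at the shares of all 13964 genes, 20.4% and 2.03%. Projection neuron transcription factors reach 15 of 28, and lists of interneuron genes also lie above the dashed line.

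The neurexins, presynaptic adhesion receptors, were in part higher. Nrxn2 (chr19:6418731-6544169, plus strand) ranged from 0 to 598 CPM with a median of 39.7 in Neurod-positive cells and from 0 to 314 CPM with a median of 3.41 in Neurod-negative cells. Its summed level was 84.4 against 31.02 CPM, or 2.72-fold, and 55.4 CPM without the highest Neurod-positive cell, with 19.05 CPM in Glutamatergic cells. The difference was 2.30, and 3.84, 1.76 and 2.65 within MGE-derived 1, MGE-derived 2 and CGE-derived cells. Exons of Gm14964 and Slc22a12 on the other strand overlap Nrxn2. Nrxn3 had a difference of 1.30 (471 against 393 CPM), but only 0.06 within MGE-derived 2 cells.

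The other bHLH factors and their partners gave few calls. Of 4 counted members of the proneural list, which holds Id2 as well, 1 was higher, Id2, and of 7 E-protein and Id genes the same 1, with 0 lower in each. For all genes the shares were 20.4% higher and 2.03% lower. By summed counts 1 was higher and 1 lower in the proneural list, and 1 and 2 among the E-protein and Id genes. The shares of all genes by that measure were 16.8% and 15.4%. Neurog2, a proneural factor of the pallium, had 0 counts in Neurod-positive cells and 0.720 CPM in Neurod-negative cells. Tcf4, an E-protein partner of Neurod factors, was counted in 16 of 16 and 36 of 40 cells; its difference was 0.92, while its summed level was lower in Neurod-positive cells, at 1319 against 1810 CPM.

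By the naming rule 275 genes qualified as higher and 161 as lower. After Zbtb18, the higher genes with the largest differences included Ubp1, Fam13b, Aar2, Rpl7l1, Slco5a1, Tmem158, Ptpra, Akap9 and Eml1. Akap9, a scaffold of the Golgi and centrosome, was counted in 16 of 16 and 30 of 40 cells, at 455 against 186 CPM (difference 3.26). Aar2, a splicing factor, was counted in 12 of 16 and 8 of 40 cells, at 131 against 28.9 CPM (difference 3.69). Eml1, a microtubule protein, was at 161 against 40.9 CPM (difference 3.24). Of Ubp1 10.6% of 50-base stretches occur in another transcript. The lower genes included Rabif, Xpo5, Samd14, 2310061I04Rik, Psmd7, Commd3, Coil, Pnpla8, Gps1, Mrpl58 and Ppm1l. Rabif, a guanine nucleotide exchange factor family gene, was counted in 6 of 16 and 26 of 40 cells, at 33.7 against 204 CPM (difference -2.76). Xpo5, the exporter of miRNA precursors, was at 7.29 against 106 CPM (difference -2.65). Gps1 shares 40.3% of its 50-base stretches with other transcripts and is uncertain.

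**Figure D5:**
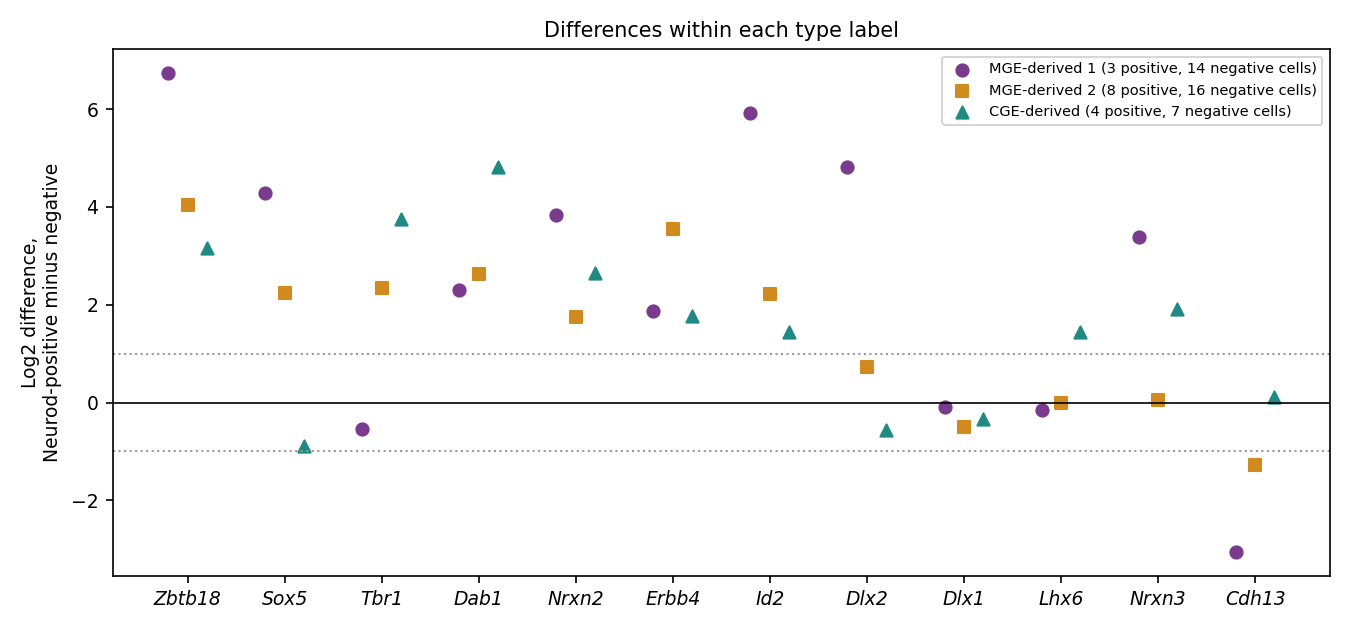
Log2 difference between Neurod-positive and Neurod-negative cells within each of 3 type labels, for 12 genes described in the text; dotted lines mark a difference of 1 in either direction. Zbtb18, Dab1, Nrxn2, Erbb4 and Id2 are above 1 under all 3 labels, while Sox5, Tbr1, Dlx2, Lhx6 and Cdh13 differ in direction between labels.

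Markers of other cells were also present in single cells of both groups. The counts below stand beside 20.4% of all genes higher by log2 difference and 16.8% by summed counts. The 10 counted microglia markers held 1 higher member by log2 difference and 6 by summed counts, and their summed level per cell ran from 0 to 16784 CPM in Neurod-positive cells (median 1.91) and from 0 to 15588 CPM in Neurod-negative cells (median 0.540). The oligodendrocyte markers had 1 of 8 higher (5 by summed counts) and medians of 56.8 and 0.365 CPM per cell, with highest values of 1874 and 481 CPM. Of these, Cspg4 had 0 counts in Neurod-positive cells, and Olig1 was at 50.9 against 1.88 CPM. Without the highest cell of each group Olig1 was at 4.07 against 0.372 CPM. The astrocyte markers had 1 of 9 higher, Apoe, and medians of 182 and 21.6 CPM, with highest values of 5144 and 9217 CPM. Gja1 and Aqp4 were at 0.0260 and 0.227 CPM in Neurod-positive cells. The intermediate progenitor markers, which pallial glutamatergic precursors express, had 2 of 7 higher (Mfap4 and Insm1) and medians of 38.6 and 0.366 CPM, while Eomes and Neurod1 had 0 counts in both groups and Neurog2 had 0 in Neurod-positive cells. The ventricular zone list had 3 of 14 higher. By log2 difference, none were higher among Cajal-Retzius markers (0 of 10), endothelial and mural markers (0 of 6) and erythrocyte genes (0 of 5). Immediate early and heat shock genes also held none (0 of 12), and pan-neuronal markers 1 of 14, Elavl4. By summed counts, astrocyte markers had 0 higher and 4 lower, intermediate progenitor markers 3 and 2, and ventricular zone markers 2 and 4. Cajal-Retzius markers had 4 and 1, endothelial and mural markers 1 and 1, and erythrocyte genes 0 and 3. Immediate early and heat shock genes had 1 and 1, and pan-neuronal markers 0 and 2. Of all genes 15.4% were lower by summed counts. The part of RNA from other cells in the differences above was not tested.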

How the data were processed

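Cytosol was aspirated from single cells of mouse embryos (E17.5 to E18.5) and its RNA sequenced. The tools were featureCounts, STAR and Trimmomatic and the build GRCm38, per the submitters' processing notes; versions, annotation and counting strand are not given in the sources used here. The authors deposited counts, whole reads per gene and cell, by Ensembl identifier and, in a table held here only in part, by gene symbol. A table of normalized signal for passed cells, deposited too, served as an alternative only; how it was scaled is not stated. Of 22880 rows of the count table by Ensembl identifier, 22570 matched a GENCODE M21 symbol and 310 did not, which left 22879 genes after summing.

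Cells were grouped from the submitters' type, line and quality labels and their Gad and Neurod counts. The members and the 20 gene lists were chosen with earlier results of these data known. Counts were divided by the cell's total (CPM), and 1 CPM was added before log2. A gene was counted in the comparison when 10% or more of either group's cells had a count. Shares of cells have exact Clopper-Pearson intervals at 95%, which treat cells as independent. Levels have exact Poisson intervals at 95%, for counting error only. Total counts per cell set that error; they ran from 1710224 to 24836041 over the passed cells.

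Genes were named where 50% or more of the higher group's cells had a count, at 20 CPM or more, at least 2-fold by summed counts, by mean CPM and without the highest cell, the 12 largest differences in each direction being taken. Members of the lists are named besides, all from the bHLH, projection neuron, glutamatergic, GABAergic transmitter and Dlx lists where needed and up to 4 from each other list; markers beyond these were chosen after their values were seen. Promoters are RefSeq windows of GRCm38.p6, matched by symbol. Some genes are not reported here, though the counts over lists and over all genes include them. Alternatives covered the scale, pseudocount, filter, table, line, type, thresholds, depth, genes per cell and leaving out cells. The calculation was tested on simulated counts. Python 3.11.15, numpy 2.4.6, pandas 2.3.3, scipy 1.17.1 and matplotlib 3.10.9 were used. No cell had counts identical to another.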

Additional observations from a re-analysis of the deposited data

Results flagged for a closer look

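A single cell far from the others of its label was looked for by Dixon's 95% critical value. Over 13 genes, 34 groups of 4 to 10 cells were looked at, and 6 were marked. The genes include Gad1, Gad2, Neurod2 and Neurod6, which chose the cells. A lone value above 0 among zeros is always marked, even at 1 count. The number of marks therefore has no known chance rate, and nothing is read from it.

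In the 8 Neurod-positive MGE-derived 2 cells, cell 20 stood apart with 21.9 CPM of Slc17a7 where the other 7 had 0, and cell 10 with 76.3 CPM of Slc17a6 where the next had 0.143. In the 4 Neurod-positive CGE-derived cells, cell 7 had 27.2 CPM of Slc17a6 where the others had 0, and cell 6 had 0 CPM of Neurod6 where the others had 215 to 283. Cell 6 held 88.1 CPM of Neurod2. In the 7 Neurod-negative CGE-derived cells, cell 1 had 0.112 CPM of Neurod6 and cell 9 had 0.0826 CPM of Tbr1 where the others had 0.

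Signal also lay in cells outside the comparison. Of 5 cells with a GABAergic type label that had failed quality control, 2 met the rule for Neurod-positive cells. Of 22 passed cells labelled Undefined, 13 held at least 10 counts of a Gad and of a Neurod gene (59.1%, 95% Clopper-Pearson interval 36.4 to 79.3), against 2 of 46 Glutamatergic, 1 of 11 VZ-derived and 0 of 12 Cajal Retzius cells. That interval treats cells as independent and does not test the labels against each other. The 13 had a median of 8373 genes per cell. Their summed levels were 712 CPM of Neurod6, 180 of Neurod2, 109 of Gad1, 573 of Zbtb18 and 30.1 of Slc17a7, where the Neurod-positive cells had 355, 65.5, 567, 387 and 1.22 CPM.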

How the results depend on the processing

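Without a test and with 1 sample per group, the values below show only how the descriptions move. The count of lower genes, 284, was the least stable. It was 2148 by summed counts, 58 with a pseudocount of 10 CPM, 572 in the authors' normalized table, 104 in the symbol table held in part, 456 in the Htr3a line, 2139 in the Lhx6 line, 748 in MGE-derived cells, 442 as the mean within types, 445 at 10 CPM in place of 10 counts, 596 in the shared range of genes per cell and 824 in cells of 4000 to 8500 genes. The count of higher genes, 2855, was 740 with a pseudocount of 10 CPM and 1125 in the symbol table, where 5795 genes were counted (19.4% higher and 1.79% lower). For the projection neuron factors, 15 of 28 higher members became 6 of 28 and, in the symbol table, 4 of 10, and for the glutamatergic list 9 became 3 with a pseudocount of 10 CPM; over the other settings they were 10 to 18 and 6 to 12. Leaving out each Neurod-positive cell gave 2662 to 3210 higher and 248 to 408 lower genes, 14 to 17 higher projection neuron factors and 7 to 10 higher glutamatergic members. By summed counts Nfix (-0.10), Cux1 (-0.26), Dlx1 (-0.73) and Tcf4 (-0.46) had the opposite sign, as had 2 more of the 15 higher projection neuron factors. In the Lhx6 line the median of the glutamatergic list was -0.29. Without the 2 cells farthest from the median Neurod level, the correlation with Gad levels was -0.105 and that with the glutamatergic list 0.531. The cause was not tested in any of these. Without the 5 cells of over 10000 genes, a limit added after the data were seen, 3481 genes were higher and 268 lower, and 18 of 27 projection neuron factors were higher. Of the other values, 132 of the comparisons' results moved by less than the spread between cells or under 1.5 times. Beyond the comparisons' results, values of single genes, counts of the other lists, percent values and further correlations were followed together. Of those, 1322 moved as little, 151 moved more and 2 reversed in direction. No paired analysis was possible because no test was made and the cells' numbers only name them.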
